A study of Mus musculus with 21 samples.

Results

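The data compared here are 6 RNA-seq libraries of Ba/F3 cells expressing JAK2-V617F, 3 treated with CHZ868 and 3 with the solvent DMSO, out of 21 libraries in 7 groups in the whole series. The comparison asks which transcripts change when these cells are kept with a type II inhibitor of JAK2. Libraries were chosen by their labels, and all 11670 genes of the deposited table of this comparison were used. Cells of the CHZ868-treated group had been kept for 6 h with the inhibitor at 1 μM, and those of the DMSO-treated group for the same 6 h with solvent alone. Both groups carry the same JAK2-V617F, so no library shows cells without the mutant kinase. The labels describe Ba/F3 as a mouse pro-B cell line that depends on interleukin-3, and one transduced line is the model in both groups. Nothing in the labels says that the 3 libraries of a group came from separate cultures, so p-values measure the spread between these libraries, which may be technical.

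JAK2 is a tyrosine kinase bound to cytokine receptors. Once active it phosphorylates receptors and STAT proteins, above all STAT5 in blood progenitors, and STAT dimers enter the nucleus and switch on genes for survival, proliferation and their own feedback. The V617F substitution keeps the kinase active without cytokine and is found in most patients with polycythemia vera. CHZ868 is a type II inhibitor, which means that it holds the kinase in its inactive shape, whereas type I inhibitors such as ruxolitinib bind the active shape.

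Values are log2 CPM, the log2 of a transcript's share of all reads with a small constant added, and a difference of 1 log2 unit is a doubling or halving of a transcript's share of the library. Depth on the listed genes was 8310000 to 9730000 reads in DMSO-treated and 7880000 to 10670000 reads in CHZ868-treated libraries, with medians of 8950000 and 8510000. The inhibitor libraries were less alike than the controls. Pairs of DMSO-treated libraries differed by a variance 2.56 to 2.81 times the sampling noise, averaged over 9773 genes with at least 50 reads in every library, and the pairs of CHZ868-treated libraries by 6.42, 9.97 and 14.7 times, with the higher values for the pairs that include replicate 3. Reads on genes of the mitochondrial genome made up 1.37% to 1.43% of DMSO-treated and 4.94% to 6.38% of CHZ868-treated libraries. The authors' filter left few genes that were silent in control cells. The lowest value in a DMSO-treated library corresponds to 7 reads, while CHZ868-treated libraries reach 0, so losses down to nothing can be seen and gains from nothing mostly cannot. Because the values are shares of a bulk sample, fewer cells expressing a gene and less RNA per cell cannot be told apart.

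The labelled cell type was only partly visible. Of 22 B lineage genes 5 were among the listed genes, namely Cd72, Cd79a, Cd79b, Btk and Syk, whereas Pax5, Ebf1, Rag1, Rag2, Vpreb1 and Igll1 were not. Of 8 markers of an interleukin-3-dependent progenitor line 6 were listed, among them Csf2rb, Csf2rb2 and Il3ra, the chains of the interleukin-3 receptor. No marker of T cells, fibroblasts or epithelium was listed. Of the 6 macrophage markers Csf1r alone was listed, and it was lower in treated cells by 1.18 log2 units. Of the 5 endothelial markers Pecam1 alone was listed, and it was higher by 0.77 log2 units. Their part in the results below was not tested.

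Of the 11670 genes, 3130 (26.8%) were higher and 3084 (26.4%) were lower in CHZ868-treated cells at an adjusted p under 0.05 (limma with a mean-variance trend, adjusted by Benjamini and Hochberg's method, the test behind every call below). Counts in the lists below are to be read beside these shares of 26.8% and 26.4%. Without CHZ868-treated replicate 3, 3255 were higher and 3171 lower. The 3 libraries of one group lay entirely above those of the other for 29.6% of genes in the direction of a rise and for 30.1% in the direction of a fall. Most shifts were small, and the large ones among the listed genes were mainly losses. Genes silent in control cells are mostly not listed, so large rises from nothing could mostly not be counted. The number of genes changed by at least 1 log2 unit was 335 (2.87%) among the higher and 676 (5.79%) among the lower, and at 3 log2 units it was 4 and 35. The median log2 fold change of all genes was -0.01, and centring each library on its own median gave 3328 higher and 2882 lower genes.

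**Figure D1:**
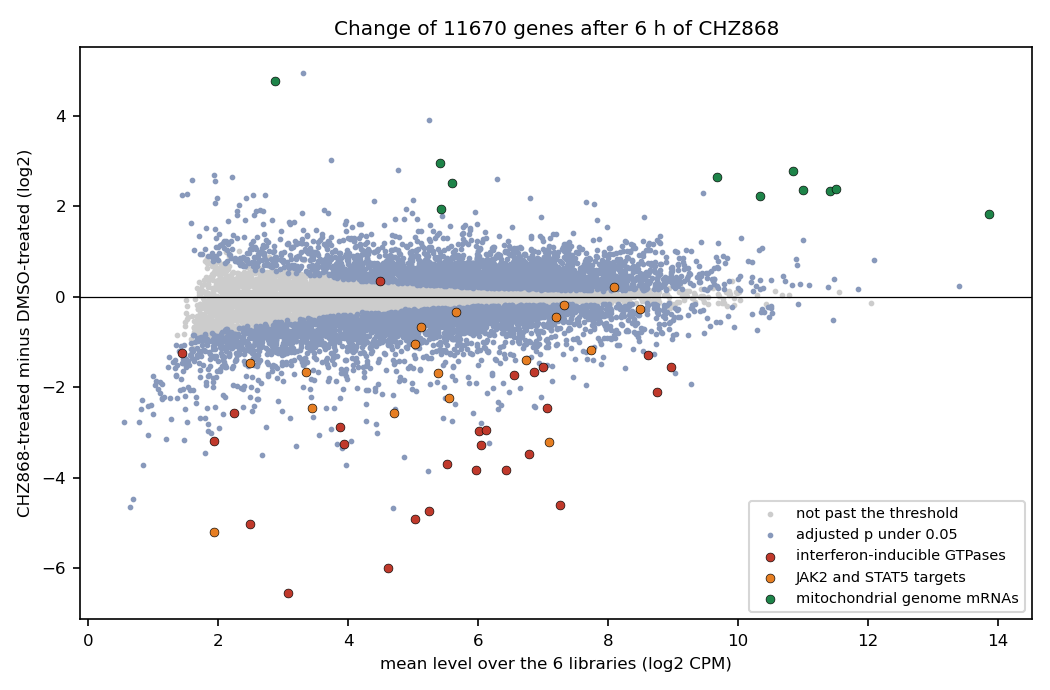
Change in CHZ868-treated against DMSO-treated libraries (y axis, log2) of each of the 11670 genes by its mean level over all libraries (x axis, log2 CPM). Interferon-inducible GTPases (red) and JAK2 and STAT5 targets (orange) lie below zero with few exceptions, and mRNAs of the mitochondrial genome (green) lie above it, from 1.83 to 4.77.

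Genes known to be switched on by JAK2 and STAT5 were almost uniformly lower. Of the 17 measured in a list of 19, 16 were lower and 1 was higher, with a median log2 fold change of -1.39 against -0.01 over all genes. The feedback inhibitor gene Socs1 and the kinase genes Pim1 and Pim2 fell most. Most of these genes were already singled out by the study or chosen with results of these data known, so the count is a description.

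Socs1 encodes a protein that binds active JAK kinases and blocks them. It had 4.41, 4.62 and 4.59 log2 CPM in the DMSO-treated libraries and -0.48, 0.03 and -1.53 in the CHZ868-treated ones. All treated libraries were near the bottom of the scale and far from the controls. The counts behind these levels were 184, 249 and 226 reads against 5, 6 and 1, a ratio of 49.5 between the pooled controls and the pooled treated libraries (95% exact binomial counting interval 28.2 to 96.3, counting error only). On the log2 scale the fitted difference was -5.20, with a standard error of 0.37 (adjusted p = 2.36e-08).

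Pim1 encodes a serine/threonine kinase that promotes survival and is a textbook STAT5 target. It had 8.64, 8.69 and 8.72 log2 CPM in control libraries and 5.34, 5.48 and 5.63 in treated ones. Treated libraries were tightly grouped and far below the controls, at a 9.20-fold lower level (log2 fold change -3.20, standard error 0.08). Its relative Pim2 had 5.99, 6.06 and 5.91 in control libraries and 2.99, 3.47 and 3.81 in treated ones. The groups did not overlap, and treated libraries spread over almost 1 log2 unit. The log2 fold change of Pim2 was -2.56 (standard error 0.17).

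Id1 encodes an inhibitor of basic helix-loop-helix factors. It went from 6.64, 6.72 and 6.64 log2 CPM in controls to 4.16, 4.39 and 4.72 under CHZ868, with no overlap. Osm encodes oncostatin M, a cytokine of the interleukin-6 family. Control libraries had 4.61, 5.07 and 4.34 and treated libraries 2.10, 2.02 and 2.51, so that the highest treated library stood well under the lowest control (log2 fold change -2.46, standard error 0.22).

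The other feedback genes fell less. Cish, the STAT5-induced founder of the SOCS family, had 7.41, 7.48 and 7.40 in controls and 5.89, 6.18 and 6.04 after CHZ868, a log2 fold change of -1.39 (standard error 0.08). Socs3 changed by -1.47 and Socs2 by -0.66, and the groups did not overlap for either. Bcl2l1, which encodes the survival protein BCL-XL, had 6.20, 6.20 and 6.26 in controls and 3.95, 4.88 and 4.77 in treated cells. Replicate 1 was the lowest of the treated libraries by over 0.8 log2 units, and all were below the controls (log2 fold change -1.69). The D cyclin gene Ccnd2 changed by -1.18, Lif by -1.67 and Bcl2 by -0.45. Myc, a driver of growth, had 8.54, 8.65 and 8.68 in controls and 8.47, 8.25 and 8.34 in treated cells, a fall of 0.27 log2 units (adjusted p = 0.00272) that is small beside those above. Mcl1, another survival gene, was the only riser of the list, by 0.22 log2 units, and it did not pass with quantile normalization (0.08, limma adjusted p = 0.256).

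**Figure D2:**
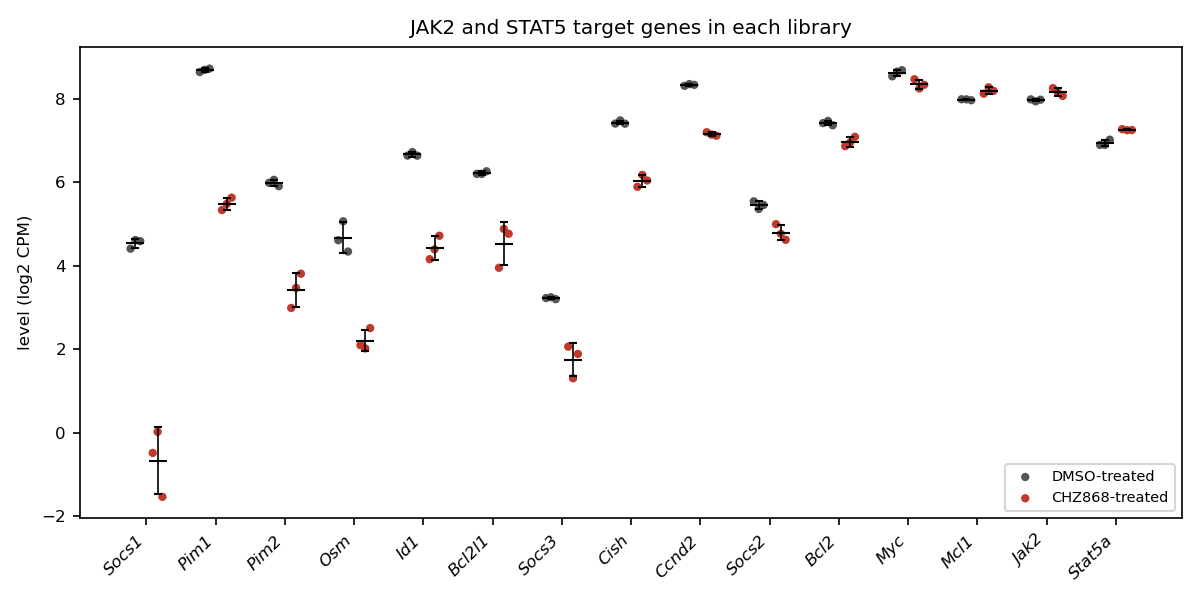
Level (log2 CPM) of 13 JAK2 and STAT5 target genes and of Jak2 and Stat5a in each DMSO-treated (grey) and CHZ868-treated (red) library, with the mean and SD in black (n = 3 per group). From Socs1 to Myc the treated libraries lie below the controls, and those of Mcl1, Jak2 and Stat5a lie above them.

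The kinases and STAT factors themselves moved in both directions. Of 10 measured, 3 were higher and 5 lower. Jak2 had 7.99, 7.94 and 7.98 log2 CPM in control libraries and 8.26, 8.16 and 8.07 in treated ones, a rise of 0.19 (adjusted p = 0.0154) that did not pass under 4 of the alternatives. Among them were quantile normalization (0.06, limma adjusted p = 0.426), the correction for GC content and transcript length (0.11, limma adjusted p = 0.108) and the fit without DMSO-treated replicate 2 (0.18, limma adjusted p = 0.0718). The paper gives the transduced gene as human JAK2, and reads were counted on the mouse genome. How many reads of the transduced gene fell on mouse Jak2 was not tested. Stat2 changed by -1.35, Jak3 by -0.83 and Stat3 by -0.35. Stat5a rose by 0.32 and Jak1 by 0.28, whereas Stat5b had a log2 fold change of 0.02 (adjusted p = 0.770).

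Genes that restrain JAK signalling were split. Of 21 measured, 9 were lower and 4 higher. The lower ones include the inducible SOCS genes above, Usp18, a protease that also blocks the type I interferon receptor (log2 fold change -2.46), and Sh2b3, the adaptor LNK that binds JAK2 (-0.81). The highest rise was that of Ptpn6, the tyrosine phosphatase SHP-1, from 6.04, 6.29 and 6.27 in controls to 7.05, 6.95 and 7.17 in treated cells (log2 fold change 0.86, standard error 0.09). Pias1, of a family of STAT inhibitors, rose by 0.69.

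Receptor chains and secreted cytokines moved in both directions. Of 19 measured chains 11 were lower and 8 higher. Il4ra was lower by 1.01 log2 units, and Csf2rb, the shared beta chain of the interleukin-3 receptor, by 0.36. Csf2rb is 95.1% identical to Csf2rb2 over 63.4% of its transcript, so reads may have been shared. Il3ra, another chain of this receptor, is counted among the lower ones but lost its call under 12 alternatives. With the GC and length correction Il3ra was at -0.06. Il2rg, the common gamma chain, had 2.87, 3.75 and 3.13 in controls and 4.85, 4.88 and 4.37 in treated cells, a rise of 1.45 log2 units with no overlap. Without DMSO-treated replicate 1 or 3 the number of higher chains was 5, and without DMSO-treated replicate 1 or 2 the number of lower ones was 7. Epor, the erythropoietin receptor, was higher by 0.39 and Il2rb, the beta chain of the interleukin-2 receptor, lower by 0.46, and each lost its call without single libraries, Epor without DMSO-treated replicate 1 (0.32) among others and Il2rb without CHZ868-treated replicate 1 (-0.30) among others. Of 15 cytokines 6 were lower and 2 higher. Besides Osm and Lif, Csf1, the macrophage growth factor, changed by -1.86, and Mif rose by 0.39. Spp1, which encodes osteopontin, had a log2 fold change of 0.09 (adjusted p = 0.450) and its groups overlapped.

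The largest falls of the experiment were those of interferon-inducible genes. Of 26 measured interferon-inducible GTPases 25 were lower, all of them by at least 1 log2 unit, and none was higher. Their median log2 fold change was -3.08, and over all alternatives tried it lay between -3.20 and -2.52, the smaller size with 5 CPM added before the log. These proteins attack the membranes around intracellular pathogens, and they are textbook targets of STAT factors and of the factor IRF1. Of 47 measured antiviral interferon-stimulated genes 45 were lower, 36 by at least 1 log2 unit, with a median of -1.65. The 2 that did not pass were Sp100 and Slfn8. Slfn8 passed as lower under some alternatives, among them the GC and length correction (-0.46) and the fit without CHZ868-treated replicate 1 (-0.47).

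The promoters of some of these genes hold letters that STAT and IRF factors are known to bind, and they are printed to show them. These 8 windows and their length were picked after the motifs had been looked up in 27 genes, of which 23 have a window and 17 hold a match, so they are examples of genes with one. The windows of Pim1, Pim2, Bcl2l1, Tap1, Psmb9 and Irf9, which also fell, hold no match to either motif, and that of Cish holds 1 only after its start. The 160 bases before the start are given 5′ to 3′ in lower case, from RefSeq (GRCm38.p6), with capitals for matches to TTCNNNGAA, the GAS motif of STAT dimers, and to GAAANNGAA, an interferon-response motif, each searched on both strands of the window. Neighbouring matches that overlap appear as 1 run of capitals. The windows lie at chr11:58183683-58183842 on the plus strand for Gm12250, chr11:58199396-58199555 on the plus strand for Igtp, chr11:48992247-48992406 on the minus strand for Tgtp1, chr4:156200819-156200978 on the minus strand for Isg15, chr19:34640729-34640888 on the plus strand for Ifit1, chr11:53769854-53770013 on the plus strand for Irf1, chr16:10785537-10785696 on the minus strand for Socs1 and chr11:117969367-117969526 on the minus strand for Socs3.
Gm12250: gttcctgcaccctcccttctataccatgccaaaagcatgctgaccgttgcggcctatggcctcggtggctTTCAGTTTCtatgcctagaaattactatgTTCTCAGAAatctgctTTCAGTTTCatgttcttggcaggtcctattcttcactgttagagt
Igtp: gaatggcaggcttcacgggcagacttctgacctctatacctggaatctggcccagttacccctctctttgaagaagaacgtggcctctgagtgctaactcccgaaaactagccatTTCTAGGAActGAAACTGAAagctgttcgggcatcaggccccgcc
Tgtp1: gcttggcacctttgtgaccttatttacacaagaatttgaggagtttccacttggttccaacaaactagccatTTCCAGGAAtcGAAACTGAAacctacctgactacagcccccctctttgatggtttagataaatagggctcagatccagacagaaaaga
Isg15: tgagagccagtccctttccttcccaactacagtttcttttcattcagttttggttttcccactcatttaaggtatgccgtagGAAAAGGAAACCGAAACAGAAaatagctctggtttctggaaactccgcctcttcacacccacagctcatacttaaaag
Ifit1: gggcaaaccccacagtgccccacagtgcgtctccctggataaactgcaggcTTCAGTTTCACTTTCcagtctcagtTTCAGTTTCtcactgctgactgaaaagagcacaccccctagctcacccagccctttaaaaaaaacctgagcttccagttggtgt
Irf1: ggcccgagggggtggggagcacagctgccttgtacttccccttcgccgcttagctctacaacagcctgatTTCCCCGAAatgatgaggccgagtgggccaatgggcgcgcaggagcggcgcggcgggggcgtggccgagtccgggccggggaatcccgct
Socs1: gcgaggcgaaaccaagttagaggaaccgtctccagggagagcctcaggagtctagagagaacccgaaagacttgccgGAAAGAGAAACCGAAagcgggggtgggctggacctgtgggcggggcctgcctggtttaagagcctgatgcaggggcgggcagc
Socs3: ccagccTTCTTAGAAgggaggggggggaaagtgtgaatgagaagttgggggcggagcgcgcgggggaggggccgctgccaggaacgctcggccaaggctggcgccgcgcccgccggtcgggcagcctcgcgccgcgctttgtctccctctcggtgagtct

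The GTPase genes Gm12250, Igtp and Tgtp1 hold both motifs, and in Igtp and Tgtp1 the GAS motif stands 2 bases before the interferon-response motif. The antiviral genes Isg15 and Ifit1 hold 3 interferon-response matches each and no GAS match, Socs1 holds 2 interferon-response matches, and Irf1 and Socs3 hold 1 GAS match each. Irf1 has a second RefSeq start, whose window holds neither motif in the 160 bases before it. Of all 32851 promoter windows of 300 bases (250 before and 50 after a start), 8.30% hold a GAS match and 8.56% an interferon-response match. The same share for the whole list of GTPases is void, because 16 of its 26 genes (61.5%) matched a window, under the 80% set as the minimum. In the list of antigen presentation genes 18 of 20 matched, and 5 of the 18 (27.8%) hold an interferon-response match, against 9.76% of the 27025 genes with a window. Over the 250 bases before the start alone these shares were 22.2% (4 genes) and 8.18%. A GAS match within the 300 bases was held by 2 of the 18 (11.1%), against 9.55% of the 27025 genes. In the list of cytokines and chemokines 5 of 13 (38.5%) hold an interferon-response match. A high share is therefore not particular to antigen presentation genes. The RefSeq start of Gm12250 lies before the start that GENCODE gives. In GENCODE, Tgtp1 spans chr11:48985327-48994172 and Socs3 chr11:117966079-117970047, both on the minus strand, so their printed windows lie inside these genes. The window of Tgtp1 lies just before the GENCODE start of Gm12185 (48992226). The window of Ifit1 runs past its GENCODE start (34640871). A match is a description of the letters and not of binding.

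Gm12250, an immunity-related GTPase gene that the annotation used here classes as a processed pseudogene, fell most of all genes. It had 6.34, 6.37 and 6.35 log2 CPM in DMSO-treated libraries and 0.50, -1.04 and -0.04 in CHZ868-treated ones, or 704, 847 and 770 reads against 12, 2 and 6. It fell by 6.55 log2 units, with a standard error of 0.31 (adjusted p = 2.69e-10). Iigp1, which encodes another GTPase of this family, had 9.54, 9.59 and 9.52 in controls and 5.05, 4.89 and 4.94 in treated cells, a 24.1-fold lower level. Both groups were tight, and they were over 4 log2 units apart.

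Igtp had 8.48, 8.49 and 8.57 in controls and 4.90, 5.12 and 5.13 in treated cells (log2 fold change -3.46). Irgm1, a regulator of the family, changed by -2.45 and Irgm2 by -3.27. Among the guanylate-binding proteins Gbp4 changed by -3.69 and Gbp2 by -1.28, so the family fell by unequal amounts. 9930111J21Rik2, a large inducible GTPase of the list, was the member that did not pass (log2 fold change 0.35, adjusted p = 0.0695), and it passed as higher with quantile normalization and without CHZ868-treated replicate 2 (0.45 each). Its relative 9930111J21Rik1 (-1.25) was the least stable of the lower members. It lost its call under 10 alternatives, among them the fit without any 1 of the libraries other than CHZ868-treated replicate 3, and was at -0.60 without CHZ868-treated replicate 1. Over all alternatives 21 to 25 of the list were lower and 0 to 1 higher.

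Several of these genes have near copies, and the counting may have split reads between them. BC023105 (log2 fold change -5.99) is 94.4% identical to Gm4841 (-3.83), and Tgtp1 (-4.74) is 99.8% identical to Tgtp2 (-3.83). Gm12185 (-4.91) and Tgtp1 overlap on the same strand in the annotation, as do Igtp and Irgm2. All members of these pairs fell. Gm5970 (-5.02) was also among the 15 largest falls, as was Iigp1c (-4.67), which is neither on the list nor in the annotation used here. BC023105 and Gm5970 are processed pseudogenes by that annotation.

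**Figure D3:**
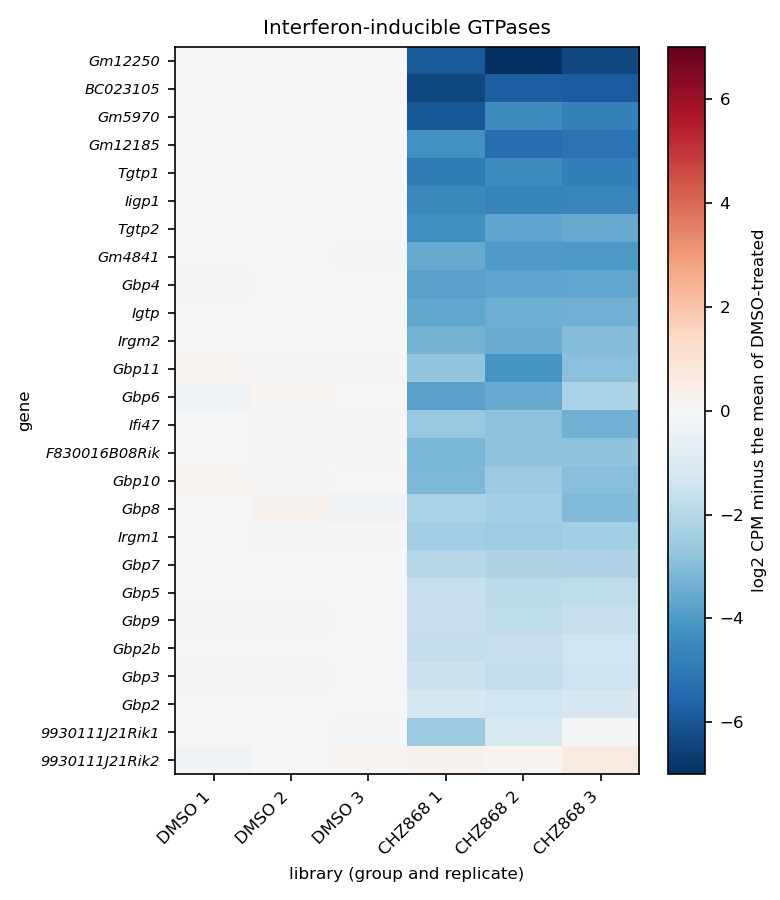
Level of 26 interferon-inducible GTPases in each library as log2 CPM minus the mean of the DMSO-treated libraries (colour), ordered by their change. The DMSO-treated columns are near zero throughout, and the CHZ868-treated columns are blue for all but 9930111J21Rik2, with 9930111J21Rik1 near zero in replicate 3.

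The transcription factors of the interferon response fell with their targets. Irf1 had 7.62, 7.50 and 7.56 log2 CPM in control libraries and 5.27, 5.09 and 5.12 in treated ones, a 5.28-fold lower level. Irf9, a DNA-binding factor of the type I interferon response, changed by -1.92 and Irf7 by -1.77. Ciita, the master regulator of MHC class II genes, had 5.63, 5.59 and 5.53 in controls and 2.0, 1.93 and 2.77 in treated cells (log2 fold change -3.35). Nlrc5, its counterpart for MHC class I, changed by -2.21.

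Among the effectors Isg15, a ubiquitin-like modifier, had 4.53, 4.61 and 4.12 in controls and 0.60, 0.86 and 1.30 in treated cells, the largest fall of the antiviral list (log2 fold change -3.50). Slfn2 changed by -3.46 with a wide spread, from 1.07 in replicate 1 to -1.09 in replicate 3 of the treated cells. Mx1, which blocks influenza viruses, changed by -2.89, Oas3, a sensor of double-stranded RNA, by -2.79, Ifit1, which binds foreign RNA caps, by -1.91, and Rsad2, which encodes viperin, by -1.54.

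Antigen presentation genes fell more moderately and not as a block. Of 20 measured 14 were lower and 4 higher, with a median of -0.65. The peptide transporter gene Tap1 changed by -0.82, its partner Tapbp by -1.23, the immunoproteasome subunits Psmb9 by -0.96 and Psmb8 by -0.43, and the class I heavy chain H2-D1 by -0.91. H2-M3 changed most, by -1.44. Against these, B2m, the light chain of class I molecules, had 10.26, 10.40 and 10.45 in controls and 11.76, 11.65 and 11.46 in treated cells, a rise of 1.25 log2 units with no overlap. H2-K1 rose by 0.62, but it is 91.3% identical to H2-D1 over 56% of its transcript, so reads may have been shared between them. Calr, a chaperone that loads class I molecules, rose by 0.88. Tap1 and Psmb9 overlap on opposite strands.

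Other signalling outputs also fell. Of 14 measured genes of ERK pathway feedback 9 were lower and 1 higher, with a median of -0.90. Dusp6, a phosphatase that inactivates ERK, had 7.04, 6.92 and 6.94 in controls and 4.26, 4.12 and 4.32 in treated cells, a 6.65-fold lower level. Etv5, an ETS factor induced by ERK, changed by -3.05, with treated libraries spread from 1.15 to 2.94. Dusp4 changed by -1.27 and Spry2 by -1.12. Dusp1, a phosphatase that acts mostly on stress kinases, was the member that rose, by 0.82.

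Immediate early factors showed the same kind of split. Of 18 measured 11 were lower and 4 higher. Egr3 had 81, 61 and 69 reads in control and 3, 0 and 1 reads in treated libraries, a pooled ratio of 47.6 (95% exact binomial interval 18.3 to 176, counting error only), and Egr2 had a log2 fold change of -3.15. Junb changed by -1.41 and Fos by -0.87. Jun rose by 0.60, from 4.62, 4.56 and 4.68 to 5.24, 5.18 and 5.25, and Nr4a2, a nuclear receptor, rose by 0.65.

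NF-kB genes moved little beside these. Of 19 measured 8 were lower and 2 higher, none by 1 log2 unit, with a median of -0.27. The adhesion gene Icam1 changed by -0.78. Nfkbia, the feedback inhibitor that NF-kB itself induces, had 5.07, 5.15 and 5.11 in controls and 4.96, 4.93 and 4.92 in treated cells and did not pass (log2 fold change -0.18, adjusted p = 0.168). Tnip1 rose by 0.72 and Rela, a subunit, by 0.42.

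Genes of growth and protein synthesis form the next large block. In the MYC network 5 of 11 measured genes were higher and 3 lower. Max, the shared partner, rose by 0.43, and the antagonists Mxi1 and Mnt by 0.77 and 0.38, while Mycn changed by -0.30 next to the small fall of Myc. Mycn lost its call under 6 alternatives, among them the GC and length correction (-0.17, limma adjusted p = 0.165) and the fits without DMSO-treated replicate 1 (-0.29) or 2 (-0.28) and without CHZ868-treated replicate 2 (-0.27) or 3 (-0.23). Ribosome biogenesis genes, many of them textbook MYC targets, were mostly lower: 37 of 52 were lower and 6 higher, with a median of -0.57. Polr1b, a subunit of RNA polymerase I, which transcribes ribosomal RNA genes, had 6.30, 6.08 and 6.26 in controls and 4.85, 4.68 and 4.62 in treated cells (log2 fold change -1.50). Rrp9 changed by -1.39, the box C/D snoRNP protein gene Nop56 by -0.92 and nucleolin, Ncl, by -0.43. Lyar rose by 0.70. Npm1, which encodes nucleophosmin, rose by 0.26, but it fell by 0.37 log2 units with quantile normalization (limma adjusted p = 9.01e-06), so its direction is not settled. Of the 52 genes 46 have a promoter window, and 13 of the 46 (28.3%) hold CACGTG, the E-box that MYC and MAX are known to bind, against 8.09% of the 27025 genes with a window. Over the 250 bases before the start alone it was 3 of the 46 (6.52%) against 6.86%, so the difference rests on the 50 bases after the start. Among the genes of the table with a window of 300 bases the share was 11.9%, but 72.9% of the table matched one, which is under the minimum for this check. The share was 35.7% (5 of 14) for p53 and its targets and 32.4% (11 of 34) for autophagy and lysosome genes. A high share is therefore not particular to ribosome biogenesis genes.

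Ribosomal protein genes had no common direction. Of 77 measured 25 were higher (32.5%) and 19 lower (24.7%), beside 26.8% and 26.4% of all genes. Their median of 0.11 was -0.10 with quantile normalization. The median over the genes relative to the control mean was 0.22 in replicate 1, 0.16 in replicate 2 and -0.19 in replicate 3 of the treated cells. Without replicate 3 the number of higher genes was 46. Rps26 had 8.28, 8.39 and 8.25 in controls and 11.20, 10.70 and 9.92 in treated cells, a rise of 2.30 log2 units whose size differed among the treated libraries. Rps10 changed by -2.0, Rpl34 by -1.27 and Rps6 by 1.05. Rps10 and Rps6 have near copies in the genome, so their values may hold reads of others. Mitochondrial ribosomal proteins were also mixed, with 25 of 76 higher (32.9%) and 13 lower (17.1%), from Mrpl57 (-1.10) to Mrps15 (1.29).

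Transcripts of genes for amino acid supply and tRNA charging fell together. Of 21 measured genes of the ATF4 response and serine synthesis 20 were lower and 1 higher, with a median of -0.97, and the lowest and highest medians over all alternatives were -1.02 and -0.83. Atf4 itself, the transcription factor of the amino acid response, had 8.14, 8.21 and 8.19 in controls and 6.80, 6.92 and 6.71 in treated cells, a log2 fold change of -1.37 (standard error 0.07). Trib3, a pseudokinase gene induced by ATF4, had 6.72, 6.85 and 6.84 in controls and 4.16, 4.09 and 4.14 in treated cells, a 6.37-fold lower level. Ddit3, which encodes CHOP, changed by -1.56, Mthfd2, of mitochondrial folate metabolism, by -2.02, Phgdh, the first enzyme of serine synthesis, by -0.97 and Asns, asparagine synthetase, by -0.63. Psph, the last enzyme of serine synthesis, was the exception and rose by 0.49.

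Of 17 amino acid transporters 12 were lower and 2 higher. Slc7a11, the cystine transporter, had 5.88, 6.02 and 6.10 in controls and 3.89, 3.82 and 4.16 in treated cells (log2 fold change -2.04). Slc1a5, which carries glutamine, changed by -1.73, and Slc7a5 and Slc3a2, the chains of the leucine transporter, by -1.05 and -0.91. Slc6a6, the taurine transporter, rose by 0.43. Of 20 cytosolic aminoacyl-tRNA synthetases 14 were lower and 2 higher, with a median of -0.67. Wars1, which charges tryptophan tRNA and is also induced by interferon, changed most, from 9.06, 9.04 and 9.06 to 7.44, 7.43 and 7.57 (log2 fold change -1.57). Dars rose by 0.27, a call lost after the GC and length correction (0.10, limma adjusted p = 0.221).

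Metabolic enzymes outside the amino acid pathways had no common direction. Of 25 nucleotide synthesis genes 10 were lower (40%) and 7 higher (28%), beside 26.4% and 26.8% of all genes. The purine enzyme Pfas changed by -1.25 and Cad, which begins pyrimidine synthesis, by -0.94, whereas Rrm1, the large subunit of ribonucleotide reductase, rose by 1.02, from 8.54, 8.48 and 8.55 to 9.53, 9.44 and 9.66. Of 28 genes of glycolysis and the pentose phosphate pathway 10 were lower (35.7%) and 7 higher (25%). The glucose transporter gene Slc2a3 changed by -1.49 and hexokinase Hk2 by -0.66, while G6pdx, the entry to the pentose phosphate pathway, rose by 0.51. Of 29 genes of cholesterol and fatty acid synthesis 19 did not pass, 6 were higher (20.7%) and 4 lower (13.8%), under the shares over all genes. Fasn, fatty acid synthase, changed by -0.79 and Nsdhl, of the cholesterol pathway, by 1.11.

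The largest rises were on the mitochondrial genome. All 11 mRNAs of it that the table lists were higher, with a median log2 fold change of 2.38 and no overlap of groups. mt-Cytb, a subunit of complex III, had 10.35, 10.35 and 10.25 log2 CPM in controls and 12.64, 12.57 and 12.88 in treated cells, a 5.21-fold higher level. mt-Co1, of complex IV, had 12.90, 12.96 and 12.97 in controls and 14.73, 14.70 and 14.89 in treated cells, and it rose least of the 11 (1.83). mt-Nd2 rose by 2.79, mt-Nd5 by 2.34 and mt-Nd6 by 2.66. The annotated ends of mt-Nd5 and mt-Nd6 overlap slightly on opposite strands, and the sources do not state whether the counting used strand.

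Some short mitochondrial transcripts differed widely among the treated libraries. mt-Atp8 had 0.45, 0.58 and 0.47 log2 CPM in controls and 6.67, 5.61 and 3.53 in treated cells, and mt-Atp6 had 4.16, 3.81 and 3.85 in controls and 8.04, 7.05 and 5.59 in treated cells. In both, replicate 1 was the highest and replicate 3 the lowest, unlike mt-Cytb or mt-Nd2, where replicate 3 was the highest. mt-Atp6 and mt-Atp8 overlap on the same strand, and mt-Atp6 is also identical to the nuclear copy Gm10925 over nearly its whole length.

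Of the 15 largest rises, 8 carry mitochondrial symbols, and the others were mostly copies. mt-Tp and mt-Tq encode tRNAs. Gm13341 (log2 fold change 4.95) is 95.9% identical to mt-Co2 (2.52), Gm13340 (3.92) is 97.6% identical to mt-Co1, and Gm28439 (2.80) is 100% identical to mt-Nd4, so their values may be reads of the mitochondrial genes. Gm3226 (3.03) is 98.7% identical to the tubulin gene Tuba1b, Ybx1-ps2 (2.57) is 92.5% identical to Ybx1 and Gm14719 (2.69) is 97.7% identical to Ppdpf. Of the parent genes, Tuba1b changed by -0.61, Ybx1 by 1.30 and Ppdpf by 0.01 (adjusted p = 0.982). Gm50357 (2.65) has no known role. With library size taken over the reads outside the mitochondrial genome, on top of the deposited normalization, 3584 genes were higher and 2652 lower, and the median log2 fold change of all genes was 0.05.

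Nuclear genes of oxidative phosphorylation rose far less. Of 50 measured 24 were higher and 4 lower, with a median of 0.17. Uqcrb, of complex III, had 5.05, 5.36 and 5.14 in controls and 6.99, 6.85 and 6.52 in treated cells, the largest rise of the list (1.60). Atp5po, of ATP synthase, had 2.04, 2.27 and 1.67 in controls and 3.73, 3.51 and 1.89 in treated cells. It passed as higher (1.05) although replicate 3 lay within the controls, and it did not pass without replicate 1 (0.71) or replicate 2 (0.82) of the treated cells. Cyc1, of complex III like Uqcrb, changed by -0.54. Without the mean-variance trend in the test 15 of the 50 were higher.

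**Figure D4:**
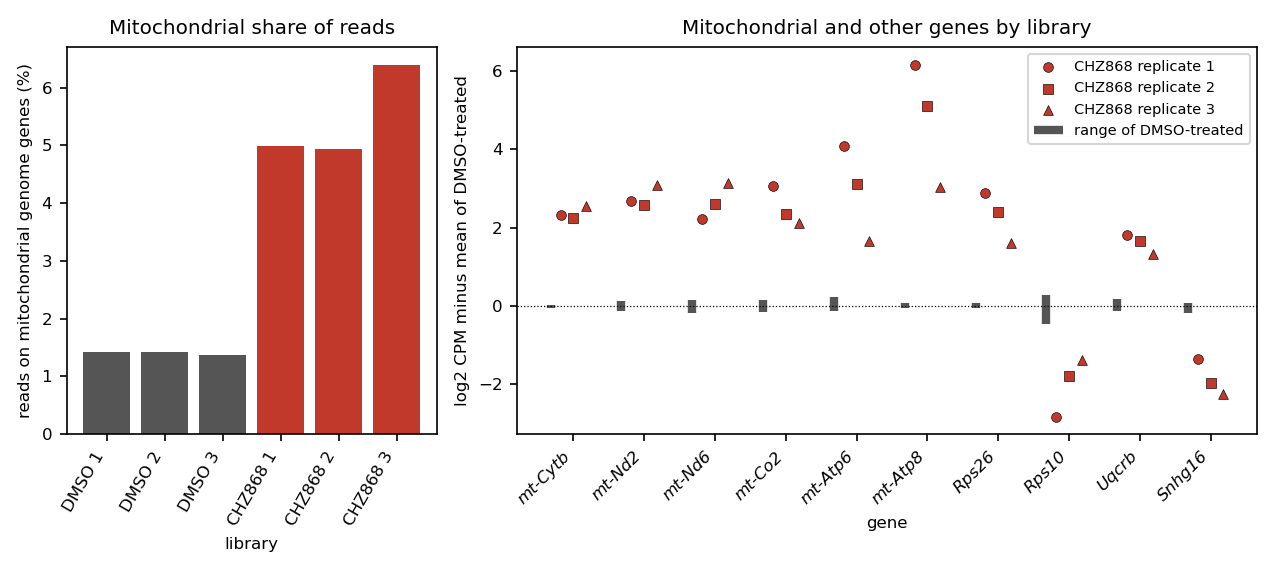
Left, share of reads on genes of the mitochondrial genome in each library (%), from 1.37 to 1.43 in DMSO-treated and 4.94 to 6.38 in CHZ868-treated libraries. Right, log2 CPM minus the mean of DMSO-treated libraries for 10 genes in each CHZ868-treated library (symbols by replicate), with the range of the DMSO-treated libraries as grey bars; replicate 1 is highest for mt-Atp8 and Rps26, and replicate 3 is highest for mt-Nd6.

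Cell cycle genes were not lower after 6 h. Of 39 DNA replication genes 25 were higher and none lower, with a median of 0.22, and with quantile normalization 16 were higher and 2 lower. Orc1, of the origin recognition complex, had the lowest value of the list and did not pass (log2 fold change -0.21, adjusted p = 0.222). Pcna, the sliding clamp of DNA polymerase, had 8.44, 8.44 and 8.46 in controls and 9.18, 9.20 and 9.16 in treated cells (log2 fold change 0.73). Pold3, a subunit of polymerase delta, rose most, by 1.05. Of 40 mitosis genes 29 were higher and 2 lower, with a median of 0.55. Nusap1, a spindle protein gene, had 7.97, 7.89 and 7.92 in controls and 9.19, 9.08 and 9.21 in treated cells (log2 fold change 1.23). Cyclin A2, Ccna2, rose by 1.04, the kinase gene Plk1 by 0.85 and cyclin B1, Ccnb1, by 0.61. Espl1, which encodes separase, and Cenpa, the centromeric histone, were the ones that fell, by 0.49 and 0.35 log2 units.

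Genes that govern entry into S phase moved apart. Ccnd2 had 8.31, 8.35 and 8.33 in controls and 7.20, 7.14 and 7.12 in treated cells, and its kinase partner Cdk6 changed by -0.76. Rbl2, the pocket protein p130 of resting cells, rose by 0.98, and the inhibitors Cdkn1b and Cdkn1a rose by 0.47 and 0.36. In the whole list of 19 measured genes 9 were higher and 4 lower. Ccnd3 was among the lower (-0.18), but it lost the call under 8 alternatives and had a log2 fold change of -0.01 after the GC and length correction (limma adjusted p = 0.931).

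Survival genes of the BCL2 family were divided equally, with 5 of 13 higher and 5 lower. Bcl2l1 fell most, as described above, and Bak1, a killer protein of the mitochondrial outer membrane, rose by 0.93, from 6.21, 6.27 and 6.27 to 7.18, 7.07 and 7.31. Bcl2l11, which encodes the killer BIM, had 5.77, 5.64 and 5.54 in controls and 5.59, 5.44 and 5.38 in treated cells, and its groups overlapped (log2 fold change -0.18, adjusted p = 0.137). Of 17 measured genes in the list of p53 and its targets 7 were higher and 3 lower, between Aen (-0.75) and Ccng1 (0.77). Trp53 itself, which encodes p53, did not pass (log2 fold change -0.09, adjusted p = 0.321). It passed as lower with quantile normalization (-0.20) and without CHZ868-treated replicate 3 (-0.16). Ripk3, the kinase of necroptosis, was among the 15 largest falls. It had 76, 64 and 76 reads in controls and 0, 3 and 0 in treated libraries, a pooled ratio of 64.9 (95% exact binomial interval 21.9 to 317, counting error only).

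Of 15 measured FOXO factors and genes that PI3K signalling represses 9 were higher and 3 lower. Klf3 rose by 1.36, Cited2 by 1.20, from 8.03, 8.02 and 8.04 to 9.30, 9.15 and 9.23, and Txnip by 0.33. Irs2, the insulin receptor substrate, went the other way, with 2.75, 2.78 and 3.19 in controls and 1.26, -1.50 and 0.67 in treated cells (log2 fold change -2.76, standard error 0.55), and so did Tsc22d3 (-1.20). Without CHZ868-treated replicate 3 the number of lower genes was 5, and with a mean of at least 3 log2 CPM required it was 1.

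Of 42 autophagy and lysosome genes 19 were higher and 3 lower, with a median of 0.19. Lamp1, a protein of the lysosomal membrane, had 7.87, 7.89 and 7.85 in controls and 9.05, 8.91 and 8.90 in treated cells (log2 fold change 1.09). Tfeb, the transcription factor of lysosomal genes, rose by 0.85 and Ulk1, the kinase that starts autophagy, by 0.66. Atg16l1 changed by -0.38, Wipi2 by -0.36 and Becn1 by -0.35. Atg16l1 lost its call without CHZ868-treated replicate 2 or DMSO-treated replicate 3 (-0.28 each) and without the mean-variance trend. Of the 42 genes 34 have a promoter window, and 11 of the 34 (32.4%) hold CACGTG, which TFEB is also known to bind, against the same 8.09% of all genes with a window. Over the 250 bases before the start alone it was 9 of the 34 (26.5%) against 6.86%. Among the genes of the table with a window of 300 bases the share was 11.9%, but 72.9% of the table matched one. In other lists with at least 80% matched, it ran from 0% for JAK kinases and STAT factors to 40% (4 of 10) for the MYC network. The list of p53 and its targets had 35.7% (5 of 14), so a high share is not particular to autophagy and lysosome genes.

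Chaperones and the unfolded protein response were mixed. Of 26 measured 10 were higher and 9 lower, and with quantile normalization 6 were higher and 15 lower. Dnajb9, a chaperone of the endoplasmic reticulum, rose by 1.42, from 4.65, 4.63 and 4.78 to 6.12, 6.12 and 6.08. Hspa5, which encodes BiP, did not pass (log2 fold change -0.11, adjusted p = 0.110). It passed as lower with quantile normalization (-0.25) and after the GC and length correction (-0.17). Of 41 translation factors 14 were higher (34.2%) and 11 lower (26.8%), beside 26.8% and 26.4% of all genes. None changed by 1 log2 unit, and they ran from Eif1 (-0.75) to Eif3h (0.74).

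Transcription factors of blood lineages rose in part. Of 28 measured 13 were higher and 6 lower. Klf1, a factor of red cell genes, had 5.89, 5.85 and 5.72 in controls and 6.97, 6.85 and 7.12 in treated cells (log2 fold change 1.16). Gfi1b rose by 0.95, Nfe2 by 0.86, Myb by 0.80, Spi1 by 0.75 and Gata1 by 0.47. Id1, described above, fell most of the list. Of 17 heme and erythroid genes 7 were higher and 4 lower. Fech, which inserts iron into heme, rose by 1.26, from 5.24, 5.31 and 5.25 to 6.55, 6.56 and 6.47, and Slc25a38, the mitochondrial glycine carrier, changed by -0.95. Hba-a1, an alpha globin gene, did not pass (log2 fold change 0.15, adjusted p = 0.0729), but it passed as higher without CHZ868-treated replicate 3 (0.20). Of the 5 B lineage genes, Cd72 and Cd79a passed as higher, by 0.54 and 0.42, whereas Cd79b, Btk and Syk had log2 fold changes of 0.23, -0.09 and -0.05 and did not pass. Btk passed as lower with quantile normalization (-0.21) and without CHZ868-treated replicate 3 (-0.17). Cd72 did not pass without DMSO-treated replicate 3. Cd79a lost its call under 5 alternatives, among them the fits without replicate 1 or 2 of the treated cells (0.39 and 0.37) and without DMSO-treated replicate 1 or 3 (0.32 and 0.35).

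Genes of the cytoskeleton moved one by one. Of 31 actin cytoskeleton genes 15 were higher and 8 lower. Actg1, cytoplasmic gamma actin, had 9.26, 9.23 and 9.15 in controls and 8.41, 8.44 and 8.43 in treated cells (log2 fold change -0.79). Coro1a, an actin regulator of white blood cells, changed by -1.10, and Arpc3, of the Arp2/3 complex, rose by 1.42. Among 15 annexins, S100 proteins, serpins and transglutaminase 2, 5 were higher and 4 lower. The protease inhibitor genes Serpina3f and Serpina3g changed by -3.84 and -2.32. Serpina3g had 7.42, 7.43 and 7.56 in controls and 5.35, 5.08 and 5.02 in treated cells, without overlap. Tgm2 had 10.25, 10.27 and 10.28 in controls and 9.56, 9.53 and 9.72 in treated cells (log2 fold change -0.67), and S100a11 rose by 1.73. Serpina3f and Serpina3g resemble Serpina3h over 54.5% and 56.8% of their transcripts (92.2% and 92.1% identity), so reads may have been shared.

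Host transcripts of small nucleolar RNAs were lower, 10 of 14 measured and none higher, with a median of -0.69. Snhg16 had 4.71, 4.71 and 4.44 in controls and 3.25, 2.66 and 2.38 in treated cells (log2 fold change -1.85). The median relative to the control mean was -0.32 in replicate 1, -0.62 in replicate 2 and -1.11 in replicate 3 of the treated cells, and the medians without one library lay between -0.88 and -0.47. Snhg3 had a log2 fold change of 0.58 (adjusted p = 0.172) and passed as higher without CHZ868-treated replicate 3 (1.12). Gas5 had 6.58, 6.81 and 6.67 in controls and 7.05, 7.04 and 6.32 in treated cells and did not pass (log2 fold change 0.12, adjusted p = 0.508), while without CHZ868-treated replicate 3 it passed as higher (0.36). Zfas1 changed by -0.82, a call lost with robust empirical Bayes estimation (limma adjusted p = 0.0942). Of the remaining large falls, Gm25043 (-3.72), a ribozyme gene by the annotation, overlaps Gm6093 on the opposite strand, and Or2h2b-ps1 (-3.72) had 55, 58 and 66 reads in controls and 5, 2 and 1 in treated libraries.

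**Figure D5:**
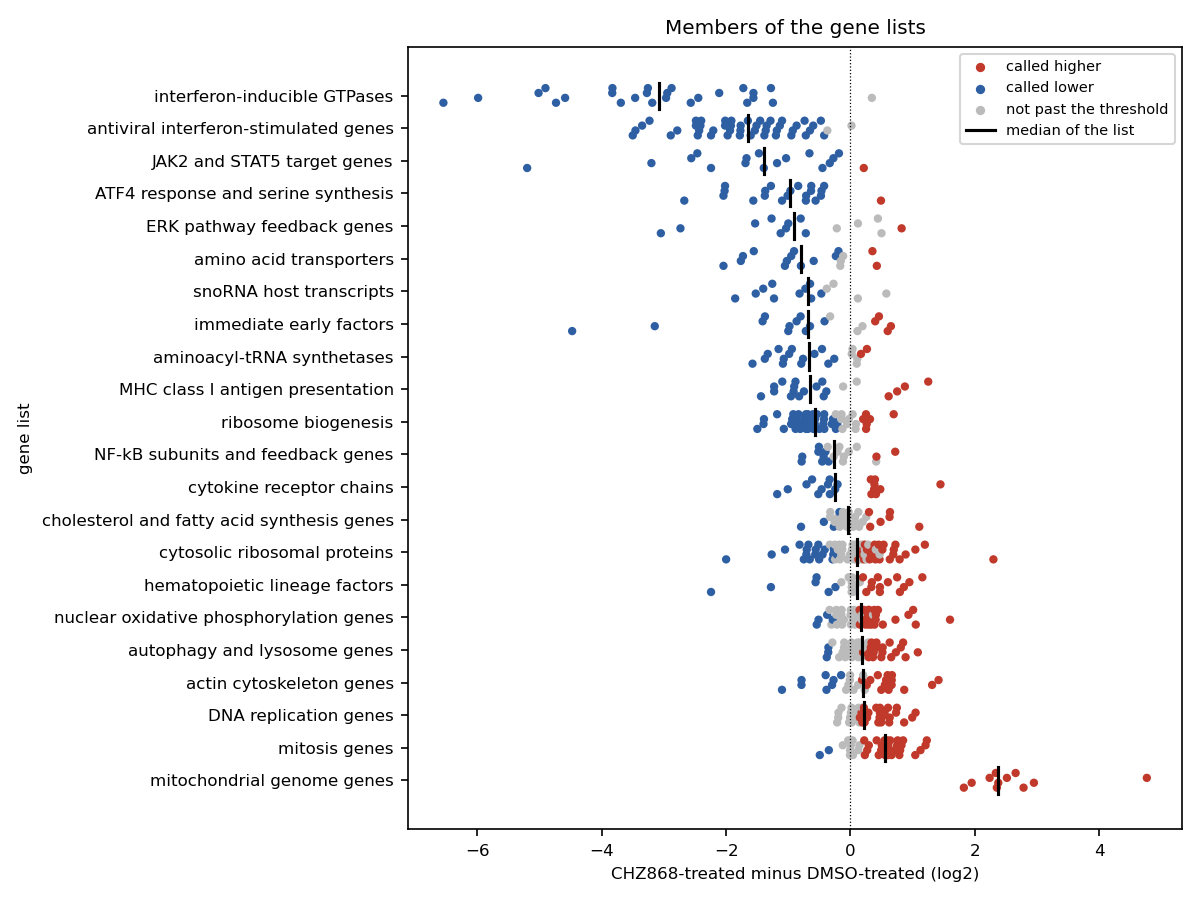
Change in CHZ868-treated against DMSO-treated libraries (x axis, log2) of each member of gene lists (rows), in red where called higher, blue where called lower and grey where not past the threshold, with the median as a black bar. The medians run from -3.08 for interferon-inducible GTPases to 2.38 for the mitochondrial genome.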

How the data were processed

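RNA was sequenced from the 6 libraries described above. Per the labels, reads were processed with STAR 2.7.3a and edgeR 4.0.16 on GRCm39. The study's own methods name kallisto and GRCm38 in place of STAR and GRCm39, and also edgeR, so the counting is not certain. The deposited table holds log2 CPM, which the authors normalized and filtered; low values were whole reads (100%, within 0.1 read) once a constant of 0.222 CPM was removed. Depth was taken from these reads, so precision is limited by counting in low genes.

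Groups were compared on the deposited log2 CPM with limma 3.58.1 (R 4.3.3) with a mean-variance trend and Benjamini-Hochberg adjustment over 11670 genes, at an adjusted p under 0.05. No column of another sample was present. The program was tested on simulated counts with few changed genes and the same spread in both groups. That test does not cover the unequal spread of the groups seen here. Genes were named by 3 rules: the 15 largest rises and falls without overlap of groups, genes the study names for JAK2 and STAT5 output, and the extremes or explained members of each list. The members and lists were chosen with earlier results of these data known, and the promoter windows after their motifs were seen. Copies were found by aligning transcripts (GENCODE M21). Settings varied were the normalization, trend, weights, filter, constant added, thresholds, GC and length correction, replicate block and each library left out; leaving out mitochondrial genes, and taking library size without mitochondrial reads, which corrects for composition a second time, were added after the data were seen. A few genes are not reported here by name, though they remain in the counts.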

Additional observations from a re-analysis of the deposited data

How the results depend on the processing

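The total of 6214 called genes was between 5652 and 6256 under the settings that kept all libraries and the threshold, and between 5081 (without DMSO-treated replicate 2) and 6426 (without CHZ868-treated replicate 3) with one library left out. An adjusted p under 0.01 gave 4668. Counting genes past an absolute log2 fold change of 0.58 gave 2941, with 1247 higher and 1694 lower, and past 1 it gave 1011, with 335 higher and 676 lower, because fewer genes pass a limit on size. The replicate block gave 6192 genes, 3140 higher and 3052 lower. The numbers did not pair the libraries (same-number correlations -0.014, 0.0464 and 0.0301). Of 216 named genes that were called, 201 kept call and direction under every alternative, 15 lost the call under some, and 1 of these, Npm1, changed sign (-0.37 with quantile normalization), for which the cause was not tested. Many of these genes were named for having the largest changes, so the counts do not stand for all called genes. Library size without mitochondrial reads, chosen after seeing the data, moved the split to 3584 higher and 2652 lower of 6236. Leaving the mitochondrial genes out of the fit, also added later, cannot move other fold changes and says nothing about stability. Of 41 list medians 8 changed sign under some alternative.

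Other signs that turned belong to genes that had not passed. With the GC and length correction the log2 fold change was -0.0702 for Spp1, -0.0423 for Sp100, 0.0855 for Syk, -0.0099 for Gas5 and 0.0111 for Trp53. With quantile normalization it was -0.093 for Stat5b, -0.0805 for Sp100 and -0.0155 for Hba-a1. With library size without mitochondrial reads it was 0.0106 for Syk. With one library left out it ran from -0.0285 to 0.0567 for Stat5b, from -0.0005 to 0.0417 for Sp100, from -0.1154 to 0.0024 for Syk, from -0.0052 to 0.3645 for Gas5 and from -0.102 to 0.15 for Ppdpf, which had -0.0040 with voom. Gas5 passed as higher without CHZ868-treated replicate 3. Depth limits statements on genes under a few reads per library, and genes silent in control cells are mostly not among those analysed here.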

Other observations

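Genes outside the lists, chosen after their values were seen, extended both directions. Among surface and secreted proteins, Cd274, which encodes the checkpoint ligand PD-L1, had 6.91, 6.69 and 6.87 log2 CPM in DMSO-treated and 3.92, 4.73 and 4.75 in CHZ868-treated libraries, a log2 fold change of -2.36 (limma adjusted p = 2.36e-08). Tnfsf10, the death ligand TRAIL, changed by -2.53, the early activation marker Cd69 by -1.99 and the matrix protein gene Fbn1 by -3.30. Further genes that interferon is known to induce were also lower, among them Rtp4 (-3.19), Apol9a (-3.24), Mpeg1 (-2.81), Ddx60 (-2.67) and Ido1 (-2.69), a tryptophan-degrading enzyme. The pattern receptor gene Nod1 changed by -2.43 and the transcription factor gene Nfil3 by -1.34.

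Among the rises, the mucin gene Muc6 had 5.76, 5.61 and 5.77 in DMSO-treated and 7.86, 7.97 and 7.86 in CHZ868-treated libraries (log2 fold change 2.18). Ifitm2, of a family known as interferon-inducible, rose by 2.25, against the direction of the antiviral list. The metallothionein genes Mt1 and Mt2, whose products bind zinc, rose by 1.76 and 1.18. Nfe2l2, the factor NRF2 of the antioxidant response, rose by 1.00 and the chemokine receptor gene Cxcr4 by 1.38.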
